A study of Homo sapiens with 12 samples.

Results

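PDZD2, OTUB2, PLEKHG4B, SYT13, ASB2, CDCP1, CLEC4E and UNC13A are 8 of the genes, among the 23106 symbols counted, whose transcripts were lower when HIF2A was silenced in the RCC4 renal carcinoma line. They were selected on those measured values, that is on the difference between the HIF2A siRNA and the control siRNA libraries described here. Of the 8, 7 also belong to a list of HIF-2 dependent genes that the study drew from the control, HIF1A and HIF2A siRNA libraries, and UNC13A does not. Their levels with control and HIF2A siRNA are therefore a description. The comparison left for a test is the double knockdown against HIF1A siRNA, whose HIF1A siRNA libraries also served that list.

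PolyA RNA was sequenced from RCC4 cells, an established human clear cell renal cell carcinoma line without functional VHL, harvested 48 h after reverse transfection with pools of siRNA. All dishes received 2 nM siRNA in total. The control siRNA group received 2 nM of non-targeting control siRNA, the HIF1A siRNA group 1 nM of HIF1A siRNA with 1 nM of control siRNA, and the HIF2A siRNA group 1 nM of siRNA against EPAS1, the gene of HIF-2α, with 1 nM of control siRNA. The double knockdown group received 1 nM of each HIF siRNA and no control siRNA. There were 3 biological replicates per group and 12 libraries in all, with total counts between 13263168 and 20451433. The whole experiment used 1 cell line and 1 pool of siRNA per target, so that effects of a pool on other transcripts cannot be told apart from loss of its target. The summed level of 8 epithelial and renal markers lay between 3935 and 6613 CPM (counts scaled to the library total), the myeloid markers summed to at most 8.62 CPM, the neuronal and neuroendocrine markers to at most 5.57 CPM and the endothelial markers to at most 0.432 CPM, and the defining markers PTPRC, TYROBP, AIF1, STMN2, CHGA, INSM1 and PECAM1 had no count in any library. A count of 0 allows a level of up to 0.147 to 0.226 CPM, taken as 3 counts in the deepest and the shallowest library, for counting error only.

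Hypoxia-inducible factors are transcription factors made of an oxygen-labile α subunit, HIF-1α or HIF-2α, and the stable partner ARNT. VHL marks the α subunits for degradation in the presence of oxygen, and its loss, the characteristic lesion of clear cell kidney cancer, leaves them stable at normal oxygen. Both dimers bind DNA at a short core motif, the hypoxia response element, yet they act on different sets of genes, and HIF-2α is the isoform with a driving role in kidney cancer and the target of an approved inhibitor.

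The RefSeq table of promoters (assembly GRCh38.p14, 250 bases before to 50 bases after a transcription start) held 6 of the 8 genes, with an alternative start for ASB2. The cores ACGTG and GCGTG of the hypoxia response element were searched on both strands. A core lay in the windows of 3 genes, OTUB2, ASB2 and UNC13A, and in each of them at least 1 match was the palindrome CACGTG, which contains ACGTG on both strands. These 3 windows are shown because they hold the core motif next to the start of a gene that was lower with HIF2A siRNA. Matches are in capitals. OTUB2 lies on the + strand at chr14:94026090-94026389, ASB2 on the - strand at chr14:93976521-93976820 and UNC13A on the - strand at chr19:17688305-17688604.
OTUB2: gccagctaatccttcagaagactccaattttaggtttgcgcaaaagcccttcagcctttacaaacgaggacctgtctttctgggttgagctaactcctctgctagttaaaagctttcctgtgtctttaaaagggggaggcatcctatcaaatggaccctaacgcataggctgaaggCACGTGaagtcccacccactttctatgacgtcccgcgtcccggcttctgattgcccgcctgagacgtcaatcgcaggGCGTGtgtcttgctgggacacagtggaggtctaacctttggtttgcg
ASB2: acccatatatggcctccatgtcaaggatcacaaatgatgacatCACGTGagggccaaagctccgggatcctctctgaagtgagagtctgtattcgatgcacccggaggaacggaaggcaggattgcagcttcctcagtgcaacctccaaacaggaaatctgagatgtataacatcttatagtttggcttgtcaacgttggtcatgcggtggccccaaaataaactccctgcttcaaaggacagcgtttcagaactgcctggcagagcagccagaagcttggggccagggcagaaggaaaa
UNC13A: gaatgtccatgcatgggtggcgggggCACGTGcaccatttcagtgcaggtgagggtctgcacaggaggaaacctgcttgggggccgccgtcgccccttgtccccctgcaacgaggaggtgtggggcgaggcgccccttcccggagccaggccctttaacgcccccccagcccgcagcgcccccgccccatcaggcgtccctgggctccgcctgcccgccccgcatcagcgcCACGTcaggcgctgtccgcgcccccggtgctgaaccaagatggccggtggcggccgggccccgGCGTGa
In OTUB2 the matches began 74 and 73 bases before the start, on opposite strands of the palindrome, and 4 bases after it. In ASB2 the palindrome began 207 bases before the start, and in UNC13A it began 224 bases before, with further matches 19 bases before and 45 bases after the start. The windows of PLEKHG4B, CDCP1 and CLEC4E and of the other ASB2 start held neither core. Among the 35116 promoters of the table, 48.4% held ACGTG or GCGTG and 7.26% held CACGTG. A match describes the letters of the window, and binding of HIF-2α was not measured in these libraries.

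Each target was lower where its siRNA was given. EPAS1 was at 163, 138 and 171 CPM in control replicates 1, 2 and 3, at 101, 107 and 134 CPM with HIF1A siRNA, at 9.16, 11.9 and 9.33 CPM with HIF2A siRNA and at 8.54, 11.3 and 7.01 CPM in the double knockdown. Between HIF1A siRNA and the double knockdown EPAS1 fell by 3.69 on the log2 scale (SE 0.18, adjusted p = 6.7e-08, edgeR quasi-likelihood test, Benjamini-Hochberg adjusted). HIF1A was at 96.7 ± 33.6 CPM (SD, n = 3) in control, 18.3 ± 3.62 CPM with HIF1A siRNA, 121 ± 13.3 CPM with HIF2A siRNA and 28.7 ± 4.09 CPM in the double knockdown. The libraries with a given siRNA were below all libraries without it for its target. HIF1A mRNA was nevertheless 133 to 178% as abundant in the double knockdown as with HIF1A siRNA in the 3 pairs (log2 fold change 0.66, SE 0.21), a difference that missed the threshold (adjusted p = 0.18, edgeR quasi-likelihood test, Benjamini-Hochberg adjusted), and its part in the differences given here was not tested.

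Between the double knockdown and HIF1A siRNA, HIF1A siRNA is present on both sides and only the addition of HIF2A siRNA in place of control siRNA differs. No library of this comparison is a control or HIF2A siRNA library, although the study's list left out genes called with HIF1A siRNA, so that the HIF1A siRNA libraries had a part in the choice of 7 of the genes. Leaving out genes lowered by HIF1A siRNA favours higher levels in those libraries, and so a lower double knockdown beside them. The spread behind the p-values was estimated from all 12 libraries, including those of control and HIF2A siRNA. All 8 genes were lower in the double knockdown in all 3 replicate pairs, and 6 fell past the threshold, namely UNC13A, SYT13, PLEKHG4B, PDZD2, OTUB2 and CDCP1. Among the 13000 genes tested, 126 were called lower, or 0.969%, and 56 higher, so that 1.4% were called in either direction (edgeR quasi-likelihood test, Benjamini-Hochberg adjusted, two-sided, adjusted p under 0.05). The median log2 fold change was -1.18 over the 8 genes, from -2.00 to -0.55, and 0.0073 over all genes tested. At an unadjusted p under 0.05, 906 of all genes tested were lower (6.97%) and 679 higher (5.22%). For 6 of the 8 genes the 3 double knockdown libraries lay below the 3 HIF1A siRNA libraries, with PDZD2 and ASB2 the exceptions, against 4.46% of all genes tested. These calls rested on comparing libraries within replicate numbers. Without the replicate number in the model edgeR called 0 of the 8 genes and 8 of all genes lower, with 5 of the 8 and 346 of all genes lower at an unadjusted p under 0.05. Without replicate 3 of all groups SYT13 and PLEKHG4B stayed called, 2 of the 8 genes with 22 genes called lower in all, and without double knockdown replicate 3 alone 4 of the 8 did, PDZD2 and UNC13A losing their calls. In whole-culture RNA, fewer cells that express a gene and less of its RNA per cell cannot be told apart.

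**Figure D1:**
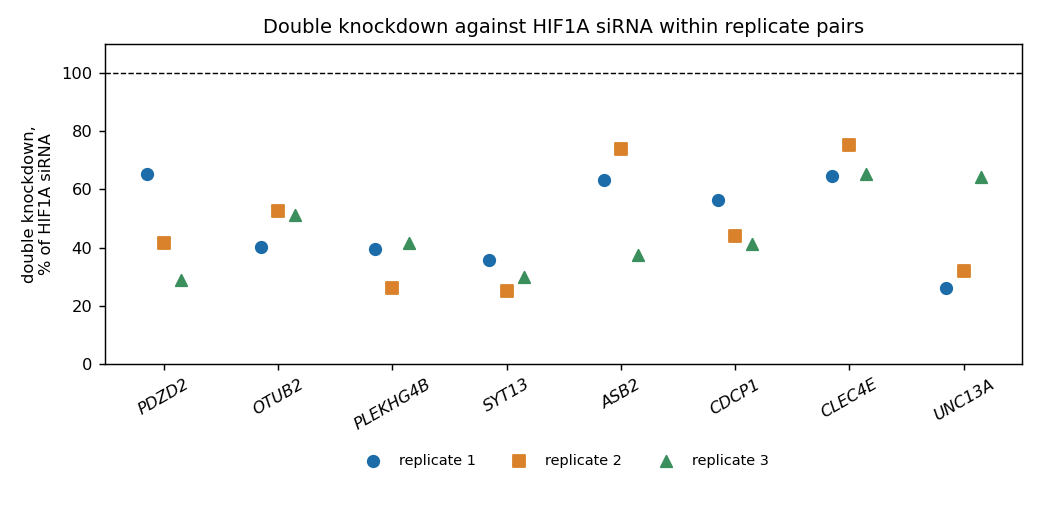
Level of each of the 8 genes in the double knockdown as a percentage of the level with HIF1A siRNA (y axis), within replicates 1, 2 and 3 (symbols), after adding 0.5 CPM to both. All 24 points lie below the dashed line at 100%, SYT13 between 25.0 and 35.6% and CLEC4E between 64.5 and 75.1%.

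SYT13 encodes an atypical synaptotagmin, a membrane protein of vesicle traffic. Its mRNA was at 463, 318 and 177 CPM in control replicates 1, 2 and 3, at 274, 287 and 146 CPM with HIF1A siRNA, at 179, 196 and 81.8 CPM with HIF2A siRNA and at 97.3, 71.5 and 43.2 CPM in the double knockdown. Replicate 3 was the lowest of each group, and the double knockdown libraries lay below all HIF1A siRNA libraries. SYT13 fell by 1.75 on the log2 scale between HIF1A siRNA and the double knockdown (SE 0.14, adjusted p = 9.7e-06 in the edgeR quasi-likelihood test, Benjamini-Hochberg adjusted), to 35.6, 25.0 and 29.9% in the 3 pairs. It had the third smallest p of all genes tested and ranked 9 by fold change among the 126 genes called lower. HIF2A siRNA alone left 38.7, 61.7 and 46.4% of control, with overlapping groups, and the log2 difference from control was -1.06 with HIF2A siRNA, -0.40 with HIF1A siRNA and -2.15 with both.

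UNC13A encodes Munc13-1, which primes synaptic vesicles for release, and was the least abundant of the 8 genes, also per length of transcript. It was at 7.05, 2.01 and 3.41 CPM in control, 4.34, 2.01 and 1.41 CPM with HIF1A siRNA, 2.73, 2.16 and 1.85 CPM with HIF2A siRNA and 0.758, 0.301 and 0.730 CPM in the double knockdown. The double knockdown values rest on 15, 4 and 15 counts. Those 3 libraries were below the other 9, whereas HIF2A siRNA and control overlapped and replicate 2 with HIF2A siRNA stood at 106% of its control, the only pair of the 8 genes that was not lower. UNC13A had the largest fall of the 8 genes between HIF1A siRNA and the double knockdown, 2.00 on the log2 scale (SE 0.45), but only a narrow call (adjusted p = 0.043, edgeR quasi-likelihood test, Benjamini-Hochberg adjusted). The call was lost on leaving out any 1 replicate number or any 1 library of the comparison, where the log2 fold change stayed between -2.58 and -1.70.

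None of the lists of relatives of these vesicle genes held a called gene. Of 16 other synaptotagmins only SYT12, SYT15 and SYT16 were expressed enough to be tested, and edgeR called none lower or higher, with SYT12 lower at an unadjusted p under 0.05 (log2 fold change -1.13) and none called by DESeq2. UNC13B, the widely expressed relative of UNC13A, was at 43.3 ± 15.2 CPM with HIF1A siRNA and 34.4 ± 8.58 CPM in the double knockdown (SD, n = 3). None of the 3 UNC13 relatives tested passed by edgeR or DESeq2, nor did any at an unadjusted p under 0.05. The list of 15 SNARE proteins, their regulators and RAB proteins of exocytosis had 0 calls by edgeR and by DESeq2 and 4 genes lower at an unadjusted p under 0.05, against 6.97% of all genes tested, with a list median of -0.02. The 8 neuronal and neuroendocrine markers summed to 2.82 to 5.57 CPM per library.

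OTUB2 and ASB2 act in the ubiquitin system and are neighbours on chromosome 14, with only LINC00521 between them among the counted genes. OTUB2 is a deubiquitinating enzyme of the ovarian tumor (OTU) family. It was at 18.2, 17.2 and 22.4 CPM in control, 25.6, 20.1 and 22.9 CPM with HIF1A siRNA, 8.78, 9.10 and 11.1 CPM with HIF2A siRNA and 10.0, 10.3 and 11.5 CPM in the double knockdown. The 6 libraries with HIF2A siRNA lay below the 6 without it, whether or not HIF1A siRNA was present. OTUB2 fell by 1.11 on the log2 scale between HIF1A siRNA and the double knockdown (SE 0.15, adjusted p = 0.0013 in the edgeR quasi-likelihood test, Benjamini-Hochberg adjusted), to 40.3, 52.5 and 51.3% in the 3 pairs. In the HIF2A siRNA libraries it was at 49.6 to 54.3% of control, the narrowest range of the 8 genes. An exon of OTUB2 overlaps DDX24 on the opposite strand in GENCODE v44, and DDX24, an RNA helicase, was 0.05 higher in the double knockdown on the log2 scale (adjusted p = 0.88, the same edgeR fit).

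ASB2 is a substrate receptor of Cullin-5 ubiquitin ligases, known from muscle and blood cells. It was at 10.4, 10.4 and 13.4 CPM in control, 15.8, 11.1 and 6.57 CPM with HIF1A siRNA, 7.87, 2.61 and 2.91 CPM with HIF2A siRNA and 9.85, 8.05 and 2.14 CPM in the double knockdown. HIF2A siRNA alone gave the largest difference from control of the 8 genes, -1.55 on the log2 scale (SE 0.40), without overlap of the groups. In the double knockdown the groups overlapped, the pairs stood at 63.4, 73.8 and 37.4% of HIF1A siRNA, and the log2 fold change of -0.80 (SE 0.38) did not pass (adjusted p = 0.42, edgeR quasi-likelihood test, Benjamini-Hochberg adjusted). ASB2 was called lower in 1 alternative, the fit of only the 6 compared libraries. Of its variance on the log2 scale over the 12 libraries, 26.2% was left after siRNA group and replicate number, the most of the 8 genes, against 2.70% for OTUB2.

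Of 14 other OTU deubiquitinases 12 were tested and 1 was called, TNFAIP3, the NF-κB inhibitor A20, which was at 114 ± 19.9 CPM with HIF1A siRNA and 76.3 ± 19.2 CPM in the double knockdown (SD, n = 3) and fell by 0.60 on the log2 scale (SE 0.13, adjusted p = 0.033, edgeR quasi-likelihood test, Benjamini-Hochberg adjusted). OTUB1, the closest relative of OTUB2, was at 120 ± 20.2 CPM and 115 ± 19.9 CPM in the same groups. None of the 10 other ASB genes tested, of 17, and none of the 4 core subunits of the Cullin-5 ligase (CUL5, RNF7, TCEB1 and TCEB2) was called by edgeR or DESeq2 or reached an unadjusted p under 0.05, and the subunits ranged from 0.02 to 0.13 on the log2 scale.

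CDCP1 is a transmembrane glycoprotein and substrate of SRC-family kinases that has been tied to invasion of carcinoma cells. With 504 ± 121 CPM in control (SD, n = 3) it was the most abundant of the 8 genes also per length of transcript. It was at 539, 369 and 604 CPM in control replicates 1, 2 and 3, 358, 343 and 466 CPM with HIF1A siRNA, 277, 302 and 326 CPM with HIF2A siRNA and 202, 151 and 192 CPM in the double knockdown. The double knockdown libraries were below all others, and the HIF2A siRNA libraries below all of control. CDCP1 fell by 1.09 on the log2 scale between HIF1A siRNA and the double knockdown (SE 0.13, adjusted p = 0.00031, edgeR quasi-likelihood test, Benjamini-Hochberg adjusted). Of 8 partners and proteases of CDCP1 7 were tested and edgeR called 0. PRKCD, the kinase that binds phosphorylated CDCP1, was lower at an unadjusted p under 0.05 and called by DESeq2, with 26.2 ± 5.24 CPM with HIF1A siRNA and 17.5 ± 1.59 CPM in the double knockdown.

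CLEC4E encodes Mincle, a C-type lectin receptor best known from macrophages, where it senses mycobacterial glycolipids and material from dead cells. It was at 49.2, 40.1 and 96.6 CPM in control, 78.8, 67.7 and 102 CPM with HIF1A siRNA, 33.1, 16.4 and 53.4 CPM with HIF2A siRNA and 50.6, 50.8 and 66.6 CPM in the double knockdown. Replicate 3 was the highest in each group. The double knockdown was at 64.5, 75.1 and 65.3% of HIF1A siRNA without overlap of the groups, and the log2 fold change of -0.55 (SE 0.19) did not pass (adjusted p = 0.23, edgeR quasi-likelihood test, Benjamini-Hochberg adjusted). CLEC4E was called lower when only the 6 compared libraries were fitted and when replicate 2 was left out. Its level with both siRNAs, 56.0 ± 9.15 CPM (SD, n = 3), stood close to the 62.0 ± 30.4 CPM of control, with a log2 difference of -0.05 (SE 0.19), where the other 7 genes had differences from -2.66 to -0.86. CLEC4D and CLEC6A, the lectin genes that flank CLEC4E, had no count in any library. The 10 myeloid markers summed to 2.83 to 8.62 CPM per library, with the 3 named above at 0. Among 21 C-type lectins 4 were tested, and none was called by edgeR or DESeq2 or reached an unadjusted p under 0.05. Of 5 genes of Mincle signalling, BCL10 and MALT1 passed the expression filter and edgeR and DESeq2 called 0, with BCL10 lower at an unadjusted p under 0.05.

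PLEKHG4B is a guanine nucleotide exchange factor. It was at 23.4, 18.0 and 21.0 CPM in control, 17.2, 15.3 and 12.7 CPM with HIF1A siRNA, 13.4, 9.29 and 9.43 CPM with HIF2A siRNA and 6.47, 3.61 and 5.01 CPM in the double knockdown. The double knockdown libraries were below all others, and control and HIF2A siRNA libraries did not overlap. PLEKHG4B fell by 1.59 on the log2 scale between HIF1A siRNA and the double knockdown (SE 0.18, adjusted p = 0.00024, edgeR quasi-likelihood test, Benjamini-Hochberg adjusted). The siRNA group accounted for 91.3% of its variance on the log2 scale. Of 7 other PLEKHG genes 5 were tested, and none was called by edgeR or DESeq2 or reached an unadjusted p under 0.05.

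PDZD2 is a large protein with several PDZ domains, which bind the carboxyl ends of other proteins. It was at 41.2, 30.6 and 10.1 CPM in control, 26.5, 26.2 and 12.3 CPM with HIF1A siRNA, 14.5, 14.2 and 4.98 CPM with HIF2A siRNA and 17.2, 10.6 and 3.16 CPM in the double knockdown. Replicate 3 was the lowest in each group. Libraries with and without HIF2A siRNA overlapped, both against control and against HIF1A siRNA, although each was lower in the 3 pairs. Of the variance of PDZD2 on the log2 scale, replicate number took 57.4% and siRNA group 38.8%. Within pairs the double knockdown was at 65.4, 41.6 and 28.7% of HIF1A siRNA, and PDZD2 fell by 1.25 on the log2 scale (SE 0.21, adjusted p = 0.0059, edgeR quasi-likelihood test, Benjamini-Hochberg adjusted). Of 8 other genes of the PDZD group 5 were tested, and none was called by edgeR or DESeq2 or reached an unadjusted p under 0.05.

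**Figure D2:**
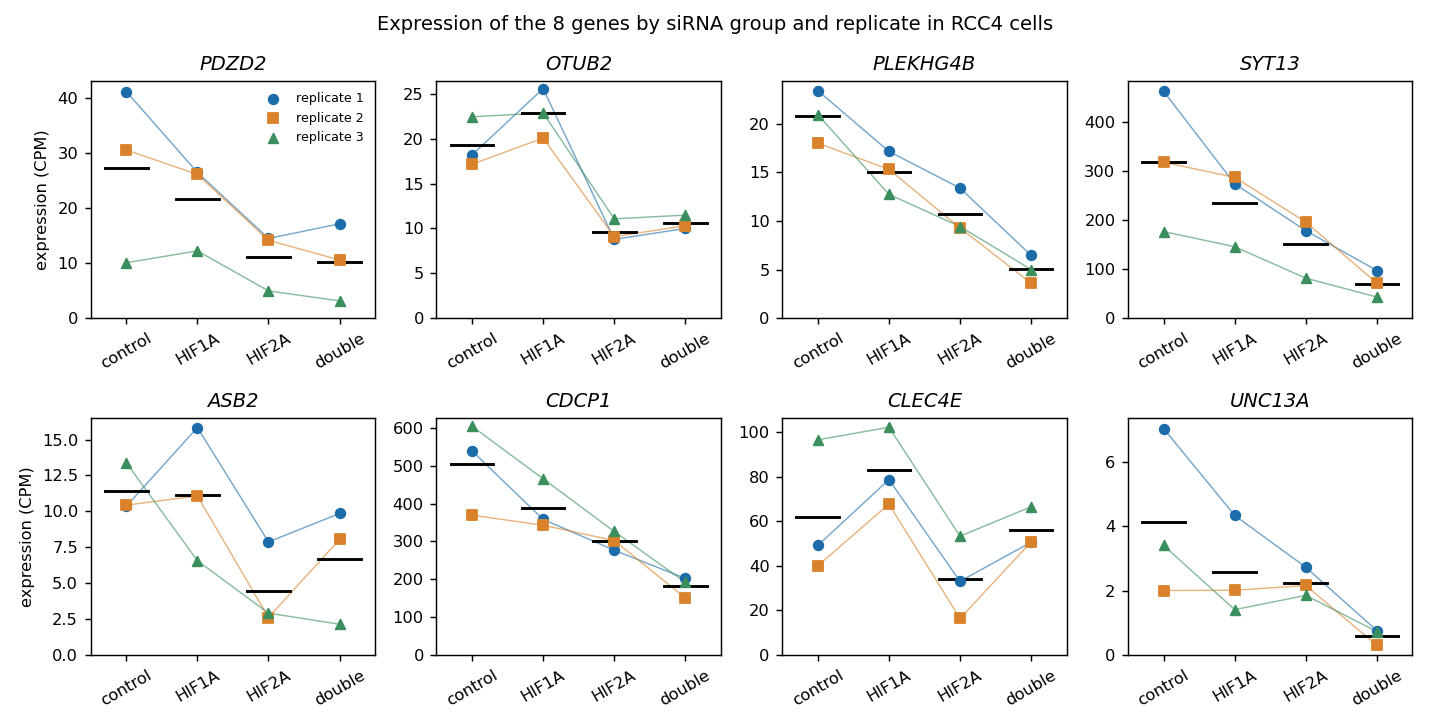
Expression in CPM (y axes, each from 0) of the 8 genes in the control, HIF1A siRNA, HIF2A siRNA and double knockdown libraries (x axes), with replicates as symbols joined by lines and group means as black bars. PLEKHG4B, SYT13, CDCP1 and UNC13A are lowest in the double knockdown in every replicate, OTUB2 lies at 11.5 CPM or lower with HIF2A siRNA and at 17.2 CPM or higher without it, and CLEC4E has a mean of 34.3 CPM with HIF2A siRNA and 56.0 CPM in the double knockdown.

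The 8 genes differed in what HIF1A siRNA added, as seen in values that share control or HIF2A siRNA libraries with the choice of the genes and carry no test. Against HIF2A siRNA alone, the double knockdown was lower in all 3 pairs for PLEKHG4B (42.0 to 55.5%), SYT13 (36.6 to 54.6%), CDCP1 (49.9 to 73.1%) and UNC13A (30.1 to 52.3%). For OTUB2 and CLEC4E it was higher in all 3 pairs, at 104 to 113% and 124 to 303%, and for PDZD2 and ASB2 the pairs went both ways. The 0.5 CPM added before taking ratios is near the UNC13A levels of 0.301 to 0.758 CPM in the double knockdown. Without that addition the UNC13A percentages would be lower. Between HIF1A siRNA alone and control siRNA the log2 difference was -0.46 for PLEKHG4B, -0.40 for SYT13, -0.36 for CDCP1 and -0.65 for UNC13A, 0.25 for OTUB2 and 0.50 for CLEC4E, -0.19 for PDZD2 and -0.20 for ASB2. EPAS1 itself was lower with HIF1A siRNA than with control siRNA, at 114 ± 17.7 against 157 ± 16.9 CPM (SD, n = 3), and the part of this in the values was not tested.

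**Figure D3:**
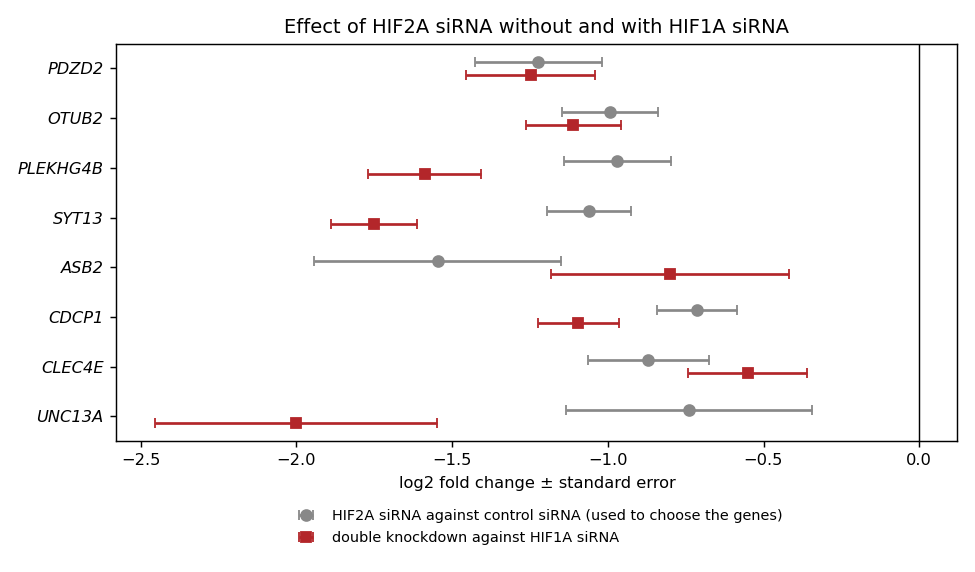
Log2 fold change with standard error (x axis) of the 8 genes for HIF2A siRNA against control siRNA, the comparison used to choose them (grey circles), and for the double knockdown against HIF1A siRNA (red squares). The difference between both comparisons was not tested. All 16 values lie below 0, from -1.55 to -0.71 in the first and from -2.00 to -0.55 in the second.

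Profiles over the 12 libraries were set side by side by Pearson r of log2 CPM after subtracting the mean of each replicate number, as a description over libraries that share siRNA groups and replicates. Among the 8 genes SYT13 was most like CDCP1 (r = 0.988) and PLEKHG4B (r = 0.980), and UNC13A had r = 0.911 with PLEKHG4B. CLEC4E was most like ASB2 (r = 0.816) and had r of -0.0193 with UNC13A, and OTUB2 and ASB2, the neighbouring genes, had r = 0.784. Among all tested genes PLIN2, the coat protein of lipid droplets, was the closest to SYT13 (r = 0.993) and to CDCP1 (r = 0.988), and second closest to PLEKHG4B (r = 0.981). PDZD2 was closest to TNFAIP6 (r = 0.975) and the integrin subunit ITGB8 (r = 0.963), and OTUB2 to PORCN, which palmitoylates WNT proteins (r = 0.968), and transglutaminase TGM2 (r = 0.958). ARL2BP (r = 0.986) came first for PLEKHG4B and PAFAH1B2 (r = 0.992) second for SYT13. ASB2 was closest to the tetraspanin CD9 (r = 0.946) and A4GALT (r = 0.930), CLEC4E to TM4SF18 (r = 0.956) and the chemokine CCL2 (r = 0.955), and UNC13A to SLC41A2 (r = 0.975) and TTLL7 (r = 0.969).

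Levels were compared between genes per kilobase of transcript, using the length of the canonical GENCODE v44 transcript, another annotation than the one used for counting. In control siRNA libraries CDCP1 was at 84.6 ± 20.3 CPM per kilobase (SD, n = 3), SYT13 at 61.8 ± 27.7, CLEC4E at 29.5 ± 14.5, OTUB2 at 4.93 ± 0.715, ASB2 at 4.37 ± 0.663, PDZD2 at 2.28 ± 1.32, PLEKHG4B at 1.65 ± 0.215 and UNC13A at 0.416 ± 0.261. In this order CDCP1 and SYT13, SYT13 and CLEC4E, OTUB2 and ASB2, and PDZD2 and PLEKHG4B overlapped as neighbours, and the ranges were apart between CLEC4E and OTUB2, ASB2 and PDZD2, and PLEKHG4B and UNC13A.

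**Figure D4:**
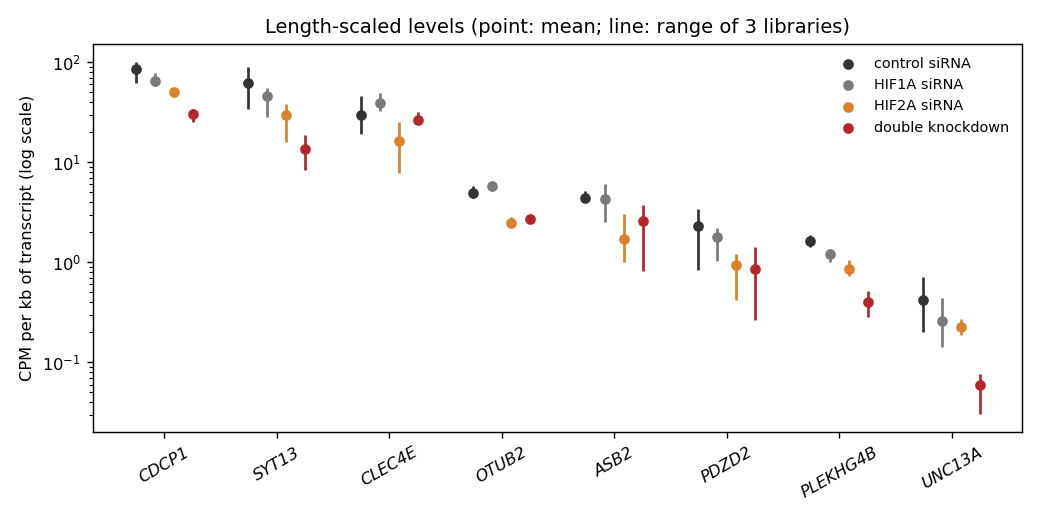
Level of the 8 genes in CPM per kilobase of transcript (y axis, log scale) in the 4 siRNA groups (colors), as mean (point) and range (line) of 3 libraries. In control CDCP1, SYT13 and CLEC4E had means of 29.5 or more, and UNC13A lay below the other 7 genes.

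The neighbours of the 8 genes on the chromosome, the nearest 2 counted genes on each side by RefSeq, came to 27 genes that are not among the 8. Of these 17 were tested. None was called by edgeR's quasi-likelihood test between HIF1A siRNA and the double knockdown, where 1.4% of all genes tested were called in either direction. At an unadjusted p under 0.05, 3 were lower, TMEM158 and TP53I11 among them, against 6.97% of all genes tested. DESeq2 called 1, TP53I11, the second counted gene on one side of SYT13 (log2 fold change -0.74 and adjusted p = 0.056 by edgeR).

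Over the 11 lists of relatives and partners of the 8 genes, 70 of 119 genes were tested and 1 was called lower and 0 higher by edgeR, with 8 lower and 0 higher at an unadjusted p under 0.05 (6.97% and 5.22% of all genes tested) and 2 lower and 0 higher by DESeq2. Their median log2 fold change was 0.0059, and the medians of the lists lay between -0.14 for the 4 C-type lectins tested and 1.09 for the 3 UNC13 relatives. The value of 1.09 is that of BAIAP3, at 2 to 5 counts with HIF1A siRNA and 5 to 11 in the double knockdown. UNC13D (1.42) had 3 to 6 and 8 to 14 counts in these groups, and the more abundant UNC13B was at -0.31. The 12 other genes of the study's HIF-2 list, chosen by the study on these samples and so not independent evidence of their direction, had 11 called lower and a median of -1.08. They included the insulin receptor substrate IRS2 (log2 fold change -1.82), MACC1 (-1.49), the pseudokinase TRIB3 (-1.23), ARRDC3 (-1.21) and the cell cycle gene CCND1 (-0.99), and the exception, SEMA5B, had a log2 fold change of -2.80 (SE 0.66, adjusted p = 0.0503, edgeR quasi-likelihood test, Benjamini-Hochberg adjusted). The epithelial marker KRT19 was also called lower (log2 fold change -0.63), 1 of 7 epithelial and renal markers tested (median -0.03). Of the myeloid markers 3 were tested (median -0.75) and of the neuronal and neuroendocrine markers 2 (median 0.04), with 0 called by edgeR or DESeq2 and 1 lower at an unadjusted p under 0.05, CSF1R, and no endothelial marker was expressed enough to be tested.

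**Figure D5:**
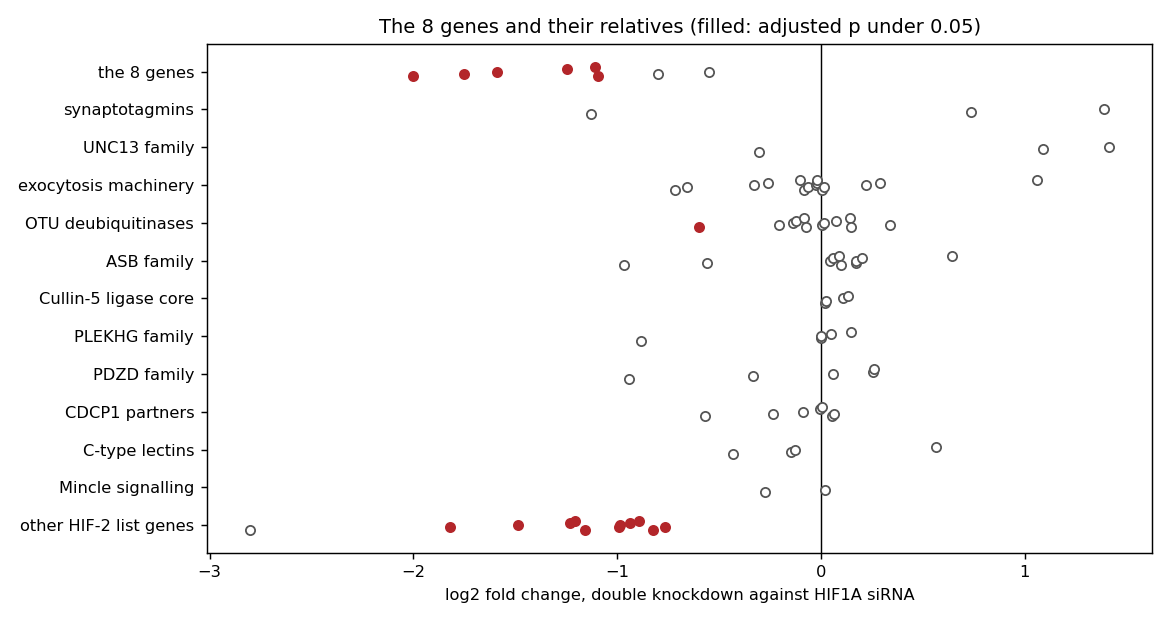
Log2 fold change between the double knockdown and HIF1A siRNA (x axis) of each tested gene of the 8, of 11 lists of their relatives and partners and of the other genes of the study's HIF-2 list (rows), filled where the adjusted p was under 0.05. In the lists of relatives and partners 1 of 70 points is filled, against 6 of 8 in the first row and 11 of 12 in the last.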

How the data were processed

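According to the methods and the submitters' processing notes, the authors trimmed reads (Trim Galore 0.3.3), aligned them to hg19 (HISAT2 2.05), discarded fragments without a unique position (Picard 2.0.1), counted fragments per gene (HTSeq 0.5.4p3, intersection-strict) and deposited raw counts of 23106 symbols per library. The library kit was directional, and the strand setting of the counting is not given in the sources used here, so that reads of overlapping genes on opposite strands, such as OTUB2 and DDX24, are uncertain. Groups and replicate numbers came from the labels. The 8 genes and all gene lists were chosen with earlier results of these data known.

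From the deposited counts, 1 model of all 12 libraries was fitted with edgeR 4.0.16 in R 4.3.3 (TMM scaling, filterByExpr with at least 10 counts after scaling and 15 in total, quasi-likelihood F-test, Benjamini-Hochberg adjustment over 13000 genes, called at an adjusted p under 0.05), with replicate number as a block, because the study paired conditions by biological replicate. Same-numbered libraries of HIF1A siRNA and the double knockdown had correlated deviations from their group means (r = 0.495, 0.522 and 0.813 across genes), those with other numbers with r from -0.668 to 0.435. Deviations from a mean of 3 libraries sum to 0, so that negative r between other numbers is partly built in. The r of 0.435, for HIF1A siRNA replicate 1 with double knockdown replicate 2, is close to the 0.495 of the replicate 1 pair. Over all groups the lowest same-number r was 0.0991 for replicate 1. Nothing in the sources says whether replicates were separate thaws or passages, so p-values measure the spread between these samples. CPM used the total count times the TMM factor, and ratios within pairs were taken after adding 0.5 CPM.

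Genes named were the 8, the siRNA targets, for each of the 8 the 2 genes with the most similar profile and the 2 nearest counted genes on each side, and the called genes of the lists. SYT12, UNC13B, OTUB1, PRKCD, BCL10, MALT1 and CSF1R were named after their values were seen, and some genes are not reported here. The lists were synaptotagmins, UNC13 genes, exocytosis, OTU deubiquitinases, ASB genes, Cullin-5 core, PLEKHG genes, PDZD genes, CDCP1 partners, C-type lectins, Mincle signalling, the study's HIF-2 list and markers of epithelial, myeloid, neuronal and endothelial cells. Alternatives were DESeq2 size factors, the DESeq2 1.42.0 test, other expression filters, no block, only the 6 compared libraries, removal of trends with GC content and length (known for 90.0% of tested genes, splines with 5 degrees of freedom), and leaving out each replicate number and each library.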

Additional observations from a re-analysis of the deposited data

How the results depend on the processing

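All 8 genes stayed lower in the double knockdown than with HIF1A siRNA in every alternative that could test them (UNC13A was not tested with at least 10 counts in every library), and the calls depended on the setting. Against 6 of the 8 genes and 126 genes called lower as reported, the pairing mattered most: with no replicate block edgeR called 0 of the 8 and 8 of all genes lower, with 5 of the 8 (CDCP1, OTUB2, PLEKHG4B, SYT13 and UNC13A) and 346 of all genes lower at an unadjusted p under 0.05. The DESeq2 test with the block called 6 of the 8 and 263 genes, the 6 compared libraries alone 8 and 412, and removal of the GC and length trend with the block 6 and 241. With replicate numbers or single libraries left out, the counts were 2 to 6 of the 8 genes and 22 to 143 genes. Without replicate 2 CLEC4E gained a call and UNC13A lost it, and the low end came without replicate 3, where SYT13 and PLEKHG4B remained called, and leaving out any single library of the comparison gave 48 (double knockdown replicate 3, where PDZD2 and UNC13A lost their calls) to 79 genes called lower. The cause was not tested. Leaving out a replicate number leaves 2 pairs. With 4 to 15 counts per double knockdown library, UNC13A is the gene most limited by depth.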
